A study of Drosophila melanogaster with 27 samples.

Results

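The Imd pathway is the branch of fly immunity that answers the peptidoglycan of Gram-negative bacteria. The set described here holds 10 of its genes that act inside the cell, matched by gene symbol: imd, Fadd, Dredd, Diap2, Tak1, Tab2, key and Rel, which carry the signal, and pirk and casp, which restrain it. All 10 were among the 11923 genes of the deposited table, and all 10 passed the filter of a mean of at least 1 FPKM that left 8742 genes for testing. An FPKM value counts fragments per length of gene and per depth of library, so levels of different genes can be set side by side.

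RNA came from the heads of female Oregon-R flies, a wild-type laboratory strain of Drosophila melanogaster, with 20 heads pooled in each of 6 libraries. The 50-day group (old) and the 3-day group (young) had 3 libraries each, which the labels call biological triplicates. Both ages were kept on the food abbreviated as CD, at 25 °C, and neither carried a transgene or received a treatment. The other 21 of the 27 samples in the series were not analysed here.

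In textbook accounts, peptidoglycan recognition proteins at the membrane or in the cytosol bring together the adaptor Imd, the adaptor Fadd and the caspase Dredd. The ubiquitin ligase Diap2 then marks Imd and Dredd, ubiquitin chains recruit the kinase Tak1 with its partner Tab2, and Tak1 activates an IKK complex made of the kinase IKKbeta and the regulatory subunit encoded by key (Kenny). Dredd cleaves Relish, the NF-kappaB factor encoded by Rel, whose freed part enters the nucleus and turns on antimicrobial peptide genes. Most of these steps are cleavage, ubiquitylation and phosphorylation of proteins, which transcript levels do not show. In adult flies the pathway is best known in the fat body, the gut and the blood cells, and a head holds fat body and blood cells beside brain and eye.

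The factor at the end of the pathway and the brake near its top rose most. Of the 10 transcripts, 5 were higher in 50-day heads at a limma adjusted p under 0.05 (pirk, Rel, imd, Dredd and Tab2), 0 were lower, and 5 were not called (Fadd, Diap2, Tak1, key and casp). Over all genes tested 39.1% were called, 18.3% as higher and 20.8% as lower. The median log2 change of the 10 was 0.25, against -0.0011 over all genes tested, and 9 of the 10 had a positive value. The ages did not overlap for 6 of the 10 in scaled values, which held for 54.3% of all genes tested. The scaling makes the bulk of the genes equal between libraries, so each direction is relative to that bulk. When each library was instead rescaled to the same sum, the median of all genes moved to -0.26 and that of the 10 transcripts to -0.011. pirk and Rel were still called higher in that fit, Diap2 was called lower, and imd, Dredd and Tab2 were not called.

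**Figure D1:**
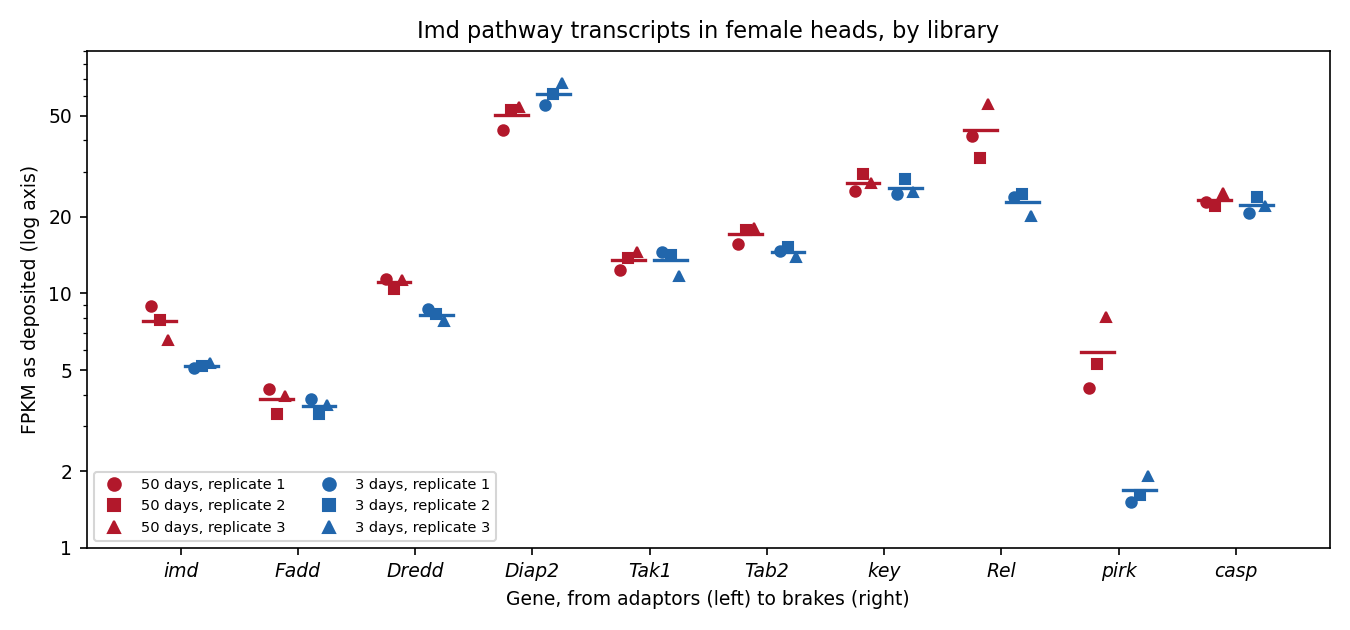
FPKM of the 10 transcripts in each library on a log axis, with 50-day libraries in red to the left and 3-day libraries in blue to the right, marker shapes for replicates 1 to 3, and a bar at the mean of the 3 libraries. The old libraries lie above the young ones for imd, Dredd, Tab2, Rel and pirk and below them for Diap2, and pirk and Fadd had the lowest levels of the set at 3 days.

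Rel encodes Relish, the transcription factor of the pathway, on chromosome arm 3R (FBgn0014018, BDGP6 3R:9044183-9047977, minus strand). Its level was 41.6, 34.0 and 55.8 FPKM in 50-day replicates 1 to 3, against 24.0, 24.7 and 20.2 FPKM in 3-day replicates 1 to 3. The lowest 50-day library was above the highest 3-day library, and the 50-day libraries were spread more widely. Old heads averaged 43.8 ± 11.1 FPKM and young heads 23.0 ± 2.43 FPKM (SD, n = 3 each). Scaled means differed 2.05-fold, which is a log2 change of 0.98 with an SE of 0.17 (limma adjusted p 0.00280). This change ranked 428 from the highest among the 8742 genes, and it was called in all 15 alternative fits, between 0.71 and 1.17.

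pirk encodes a brake that binds Imd and the receptor PGRP-LC and is itself induced by the pathway. It lies on arm 2R (FBgn0034647, BDGP6 2R:21660967-21662995, minus strand). Its level was 4.25, 5.30 and 8.05 FPKM in 50-day replicates 1 to 3, against 1.51, 1.62 and 1.92 FPKM in 3-day replicates 1 to 3. Every old library exceeded every young one, and the old libraries were spread more widely. Old heads averaged 5.87 ± 1.96 FPKM and young heads 1.68 ± 0.212 FPKM (SD, n = 3 each), a 3.73-fold difference in scaled means. The log2 change of 1.40 (SE 0.17, limma adjusted p 0.000757) had the rank 239 from the highest of all genes tested and is an understatement, because the added 1 FPKM weighs on a gene at this level. With 0.1 FPKM added it was 1.80. If the lowest step of the deposited values is a single fragment, pirk rested on roughly 53 to 57 fragments in each 3-day library, so its young level is the least precise of the 10.

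Caspar, the product of casp and a relative of mammalian FAF1, is a brake of another kind that holds back the cleavage of Relish by Dredd. Its transcript had 22.9, 22.1 and 24.9 FPKM in 50-day replicates 1 to 3, against 20.8, 24.0 and 21.99 FPKM in 3-day replicates 1 to 3. The ages overlapped in these values. The log2 change was 0.17 (95% interval -0.023 to 0.36, limma adjusted p 0.143), and its sign turned when libraries were rescaled to the same sum (-0.10).

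Among the adaptors and the caspase, imd and Dredd were higher in old heads and Fadd was not called. imd encodes the death-domain adaptor that gives the pathway its name (FBgn0013983, BDGP6 2R:18409796-18413599, minus strand). It had 8.95, 7.90 and 6.59 FPKM in 50-day replicates 1 to 3, against 5.10, 5.18 and 5.31 FPKM in 3-day replicates 1 to 3. The young libraries were nearly level and all old libraries lay above them. Old heads averaged 7.81 ± 1.18 FPKM and young heads 5.20 ± 0.105 FPKM (SD, n = 3 each). The change on the log2 scale was 0.59, with an SE of 0.13 (limma adjusted p 0.00824), and it was 0.34 and not called when libraries were rescaled to the same sum.

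The imd value has a neighbour to be read with it. The exons of imd share 40 bases, or 2.64% of their length, with those of GstE9, a glutathione transferase gene on the opposite strand. Whether strand was used in counting is not given in the sources used here. GstE9 was far more abundant, with 282, 239 and 224 FPKM in 50-day replicates 1 to 3, against 117, 134 and 175 FPKM in 3-day replicates 1 to 3. GstE9 was also called, with a log2 change of 0.93 (limma adjusted p 0.00482). Within each age the libraries stood in the same order for GstE9 and imd. Whether any GstE9 reads entered the imd value was not tested. Dredd, key and Diap2 share 12, 29 and 1 exon bases with an opposite-strand protein-coding gene, none of which was called (Mybbp1A, CG3589 and bug). The other 6 transcripts share none with such a gene. On its own strand Dredd shares 61 (3.57%), 24 and 23 exon bases with 3 noncoding RNA genes. IKKbeta shares 201 bases (8.08%) with the same-strand noncoding RNA gene CR45212. These noncoding genes have no deposited values, and whether their overlaps affected the Dredd and IKKbeta values was not tested.

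Dredd encodes the caspase-8-like protease that cleaves Imd and Relish (FBgn0020381, BDGP6 X:633622-635545, minus strand). It had 11.4, 10.5 and 11.3 FPKM in 50-day replicates 1 to 3, against 8.65, 8.29 and 7.79 FPKM in 3-day replicates 1 to 3. The groups did not overlap, and the spread within each age was small. Scaled means differed 1.45-fold, a log2 change of 0.48 with an SE of 0.089 (limma adjusted p 0.00400), and 0.22 and not called when libraries were rescaled to the same sum. Fadd, the adaptor that bridges Imd and Dredd, was the least abundant transcript of the set at 50 days, with 3.84 ± 0.427 FPKM, against 3.61 ± 0.251 FPKM at 3 days (SD, n = 3 each). Its libraries overlapped between the ages. The log2 change of Fadd was 0.15 (95% interval -0.12 to 0.43, limma adjusted p 0.333), and its sign turned when libraries were rescaled to the same sum (-0.073).

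Diap2 encodes the ubiquitin ligase of the pathway, which is also an inhibitor of apoptosis protein. It had 43.9, 52.7 and 54.1 FPKM in 50-day replicates 1 to 3, against 55.1, 60.8 and 67.0 FPKM in 3-day replicates 1 to 3. The deposited values did not overlap, while the scaled values did. The log2 change of -0.17 (95% interval -0.39 to 0.053, limma adjusted p 0.200) was not called. It was the only one of the 10 with a negative estimate. Rescaled to the same sum, Diap2 was called lower, at -0.45. Its limma adjusted p was 0.0130 there and went up to 0.418 among the 15 alternatives.

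The kinase module gave a call for Tab2 but not for Tak1, with overlapping 95% intervals (0.16 to 0.48 for Tab2). A call for one and none for the other does not test the difference between them. Tab2, which encodes the subunit that tethers Tak1 to ubiquitin chains (FBgn0086358, BDGP6 2R:19292529-19304508, plus strand), had 15.7, 17.7 and 18.1 FPKM in 50-day replicates 1 to 3, against 14.7, 15.2 and 13.9 FPKM in 3-day replicates 1 to 3. The old libraries lay above the young ones, with a gap of under 1 FPKM between the nearest. Its log2 change was 0.32, with an SE of 0.070 (limma adjusted p 0.00830). Tab2 was not called with the deposited values unscaled (adjusted p 0.0931), nor with libraries rescaled to the same sum (0.781). Tak1, a kinase that feeds both the IKK complex and the JNK pathway, averaged 13.6 ± 1.13 FPKM in old heads and 13.5 ± 1.53 FPKM in young heads (SD, n = 3 each). Its log2 change was 0.11 (95% interval -0.10 to 0.33, limma adjusted p 0.370), and it was -0.16 when libraries were rescaled to the same sum.

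In the IKK complex, IKKbeta was called and key was not, but their 95% intervals also overlapped (0.28 to 0.67 for IKKbeta). key, the regulatory subunit, had 25.3, 29.4 and 27.2 FPKM in 50-day replicates 1 to 3, against 24.6, 28.1 and 25.0 FPKM in 3-day replicates 1 to 3. The deposited values overlapped between the ages, while the scaled values did not. The log2 change of key was 0.18 (95% interval -0.0026 to 0.36, limma adjusted p 0.107), and its sign turned when libraries were rescaled to the same sum (-0.097). IKKbeta, the kinase subunit and not one of the 10, had 10.04, 9.41 and 9.55 FPKM in 50-day replicates 1 to 3, against 6.83, 7.45 and 7.38 FPKM in 3-day replicates 1 to 3. The old libraries lay above the young ones throughout. The log2 change of IKKbeta was 0.47, with an SE of 0.086 (limma adjusted p 0.00381), and 0.22 and not called when libraries were rescaled to the same sum.

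**Figure D2:**
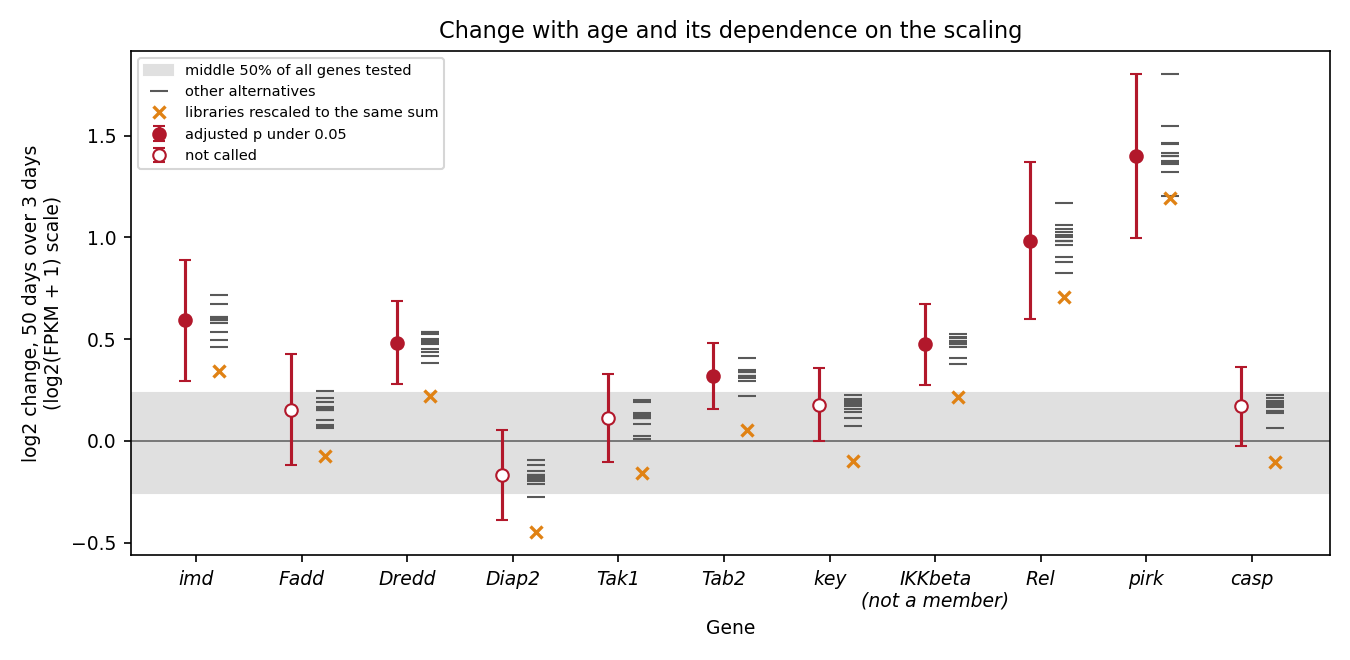
Log2 change of each transcript (50 days over 3 days, on the log2(FPKM + 1) scale) with its 95% interval, filled where the limma adjusted p was under 0.05, beside short dashes for the alternative fits and a cross for libraries rescaled to the same sum. Rel, pirk and imd lie above the grey band, which holds the middle 50% of all genes, in every fit that tested them, while the crosses of Fadd, Tak1, key and casp fall below 0.

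The order of levels differed little between the ages except at Rel and pirk. At 50 days the means ran from Diap2 (50.3 FPKM) through Rel (43.8), key (27.3), casp (23.3), Tab2 (17.2), Tak1 (13.6), Dredd (11.1), imd (7.81) and pirk (5.87) to Fadd (3.84). The libraries of neighbours in this order overlapped for Diap2 and Rel and for imd and pirk, and for no other neighbours. At 3 days Diap2 (61.0 FPKM) stood above all others, Rel (23.0 FPKM) lay among key (25.9) and casp (22.2), and pirk (1.68) was lowest, below Fadd (3.61). Rel overlapped with key and with casp at 3 days, and Tab2 with Tak1, while the remaining neighbours did not overlap.

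Ratios within a library do not depend on how libraries are scaled, and 4 of them were computed for brakes and their targets and for partners in a complex. With 3 libraries against 3, an exact two-sided permutation test cannot give a p below 0.1, so none of the 4 can pass a threshold of 0.05. The ratio of pirk to Rel was 0.102, 0.156 and 0.144 in 50-day replicates 1 to 3, against 0.0630, 0.0655 and 0.0952 in 3-day replicates 1 to 3. The lowest old ratio was above the highest young one, a 1.80-fold difference of geometric means (exact permutation p 0.1, 0.1 after Benjamini-Hochberg adjustment over the 4 ratios). pirk thus remained the rarer transcript per length in every library.

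The ratio of casp to Dredd was 2.00, 2.11 and 2.21 in 50-day replicates 1 to 3, against 2.40, 2.89 and 2.82 in 3-day replicates 1 to 3. All old libraries lay below all young ones, by 0.782-fold (exact permutation p 0.1, adjusted 0.1). Tab2 to Tak1 averaged 1.26 ± 0.0237 in old heads and 1.09 ± 0.0893 in young heads (SD, n = 3 each, exact permutation p 0.1, adjusted 0.1). key to IKKbeta averaged 2.83 ± 0.305 in old heads and 3.58 ± 0.194 in young heads (SD, n = 3 each, exact permutation p 0.1, adjusted 0.1). Neither of these ratios overlapped between the ages.

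**Figure D3:**
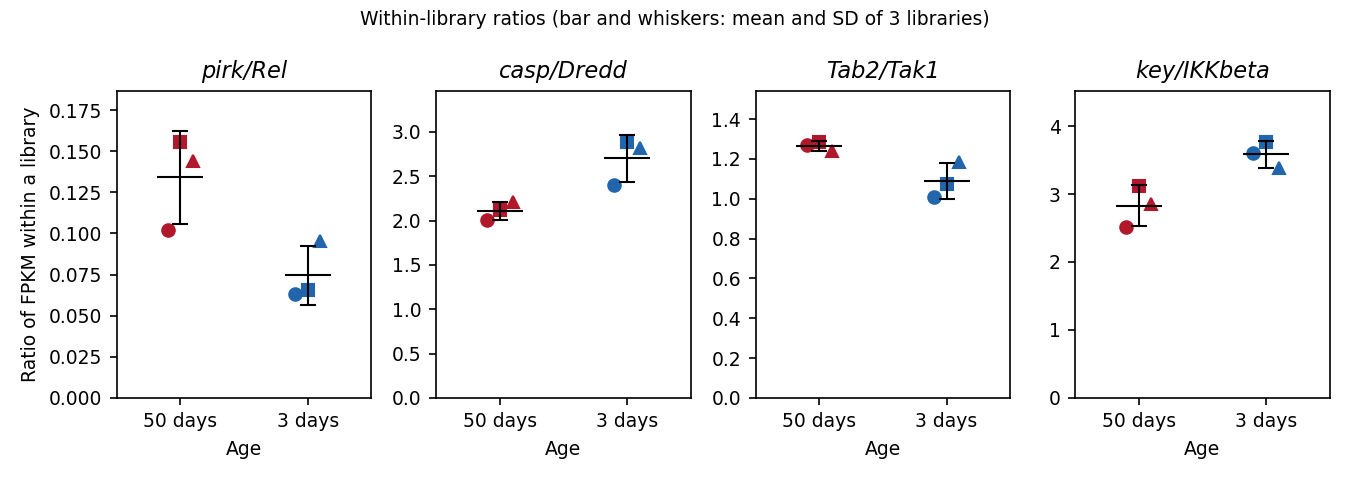
Ratio of FPKM within each library for 4 gene pairs, from an axis that starts at 0, with 50-day libraries to the left of 3-day libraries and the mean and SD of 3 libraries in black. The old libraries are higher for pirk/Rel and Tab2/Tak1 and lower for casp/Dredd and key/IKKbeta, with no overlap between the ages.

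The order of the libraries within an age gave a further description. The summed level of 15 antimicrobial peptide genes was 15883, 6467 and 19990 FPKM in 50-day replicates 1 to 3, against 89.3, 287 and 81.2 FPKM in 3-day replicates 1 to 3. The largest part of the old sums was Mtk, which the Toll pathway also drives, with 7928, 3440 and 8735 FPKM in 50-day replicates 1 to 3. Rel stood in the same order as the peptide sum at both ages. Replicate 3 was highest and replicate 2 lowest among old libraries, and replicate 2 was highest and replicate 3 lowest among young ones. pirk did not follow that order, since old replicate 1 had its lowest 50-day level and young replicate 3 its highest 3-day level. With 3 libraries an age, an order is shown as a description and was not tested.

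**Figure D4:**
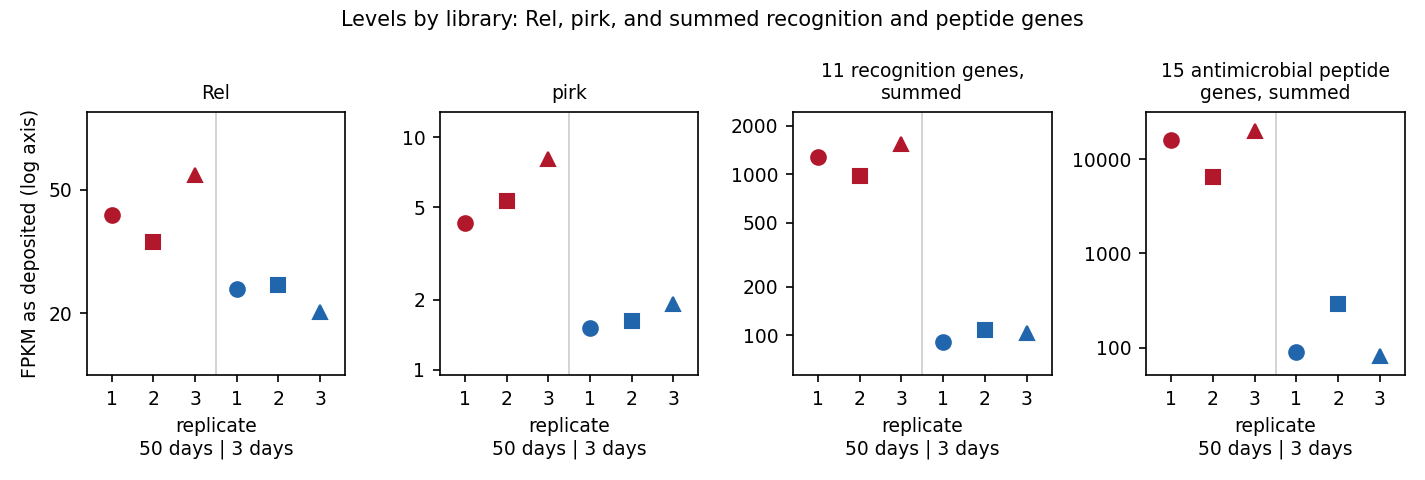
FPKM by library on log axes for Rel, for pirk, for the sum of 11 peptidoglycan recognition genes and for the sum of 15 antimicrobial peptide genes, with 50-day replicates 1 to 3 in red and 3-day replicates 1 to 3 in blue. In old heads replicate 2 had the lowest Rel level (34.0 FPKM) and the lowest peptide sum (6467 FPKM), but pirk was lowest in replicate 1 (4.25 FPKM).

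The genes whose levels ran most like those of Rel over the 6 libraries were CG5626, CG15611, GNBP2, CG10841 and PGRP-SC2, with Pearson's r between 0.989 and 0.992 in log2 values. For pirk they were CG14906, Gagr, CG1146, CG1461 and CG14636, with r between 0.994 and 0.996. The 6 points fall in a cluster per age and share their libraries. Of all genes tested, 1.30% exceeded an r of 0.95 with Rel and 2.63% with pirk. In the deviations of the 6 libraries from their age means, the nearest genes to Rel were drongo, Ptr, Nse4, CG42748 and CG6310 (r between 0.986 and 0.997). Those nearest to pirk were emp, CG4572, cd, CG43341 and Pcp (r between 0.981 and 0.994). In these deviations 0.343% of all genes tested exceeded an r of 0.95 with Rel and 0.469% with pirk. The named genes are the highest among all tested over few libraries, so a high r is no sign of a link. No gene stood in more than one of these 4 groups of 5.

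Peptidoglycan recognition genes were mostly higher in old heads, and not all of those listed pass a signal to Imd. Of 12 listed, 10 were tested, 7 were called higher, 0 lower and 3 not called, against 18.3% higher and 20.8% lower over all genes tested. The median log2 change of the list was 0.88. Rescaled to the same sum, 6 were higher and 1 lower. The largest changes were those of PGRP-SC2, an amidase that degrades peptidoglycan (5.69 in log2, limma adjusted p 0.00178), and PGRP-SB1, another secreted amidase (5.05, adjusted p 7.64e-06). PGRP-SC2 was uneven, with 63.2, 14.04 and 263 FPKM in 50-day replicates 1 to 3, against 0, 0.9496 and 0.0947 FPKM in 3-day replicates 1 to 3. PGRP-SC2 passed the filter only through its 50-day libraries, so its call as higher carries no support of its own. The smallest changes among the 7 were those of PGRP-LB, an amidase that dampens the pathway (0.75, adjusted p 0.0191), and PGRP-LC, the membrane receptor upstream of Imd. PGRP-LC had 14.6, 13.7 and 16.1 FPKM in 50-day replicates 1 to 3, against 8.38, 8.73 and 9.73 FPKM in 3-day replicates 1 to 3, with no overlap (0.77 in log2, SE 0.092, limma adjusted p 0.000635).

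The counts in the lists around the 10 transcripts, from IKK partners to JNK, stand beside those of all genes tested. Over those, 18.3% were called higher and 20.8% lower. Of 7 IKK and ubiquitin partners, only IKKbeta was called, with a list median of 0.15, and 2 were called without 3-day replicate 3. Unscaled values gave 1 higher and 1 lower (Cul1), and libraries rescaled to the same sum 0 higher and 2 lower (ben and Cul1), with a median of -0.13. Both names were chosen after their values were seen. Of 8 tested among 11 other negative regulators, 0 were higher and 2 were lower, with a list median of 0.00076. These were RYBP, a Polycomb-associated protein (log2 change -0.33, limma adjusted p 0.0164), and the ubiquitin protease Usp2 (-0.23, adjusted p 0.0350). Without 3-day replicate 2 neither was called (0 of the list), and without 3-day replicate 1 or any single 50-day library the list gave 1 call.

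Of 8 nuclear cofactors of Relish, akirin was called higher (0.28, limma adjusted p 0.0289), with a list median of -0.0056. Rescaled to the same sum, akirin was not called (adjusted p 0.979), and Bap55, named after its values were seen, was called lower (-0.45, adjusted p 0.0142). The list median was then -0.27. The list gave 0 calls with unscaled values and on leaving out old replicate 2, young replicate 2 or young replicate 3. Of 6 genes from Tak1 to JNK, the transcription factor kay (0.33, adjusted p 0.0278) and the phosphatase puc (0.30, adjusted p 0.0108) were higher, and bsk, which encodes JNK itself, was lower (-0.32, adjusted p 0.0193). Their list median was 0.061. With unscaled values or libraries rescaled to the same sum bsk alone was called, and the list gave 1 call on leaving out old replicate 1, old replicate 2 or young replicate 1.

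The neighbouring Toll branch uses other NF-kappaB factors and other adaptors. Its median log2 change was 0.27. Of 8 genes tested, 5 were called higher and 1 lower, against 18.3% and 20.8% of all genes tested. The highest among them were Dif, a Toll-side NF-kappaB factor (0.55, limma adjusted p 0.00337), and the adaptor Myd88 (0.43, adjusted p 0.00304). Among the 6 called genes the lowest were the receptor Tl (-0.24, adjusted p 0.0324) and its ligand spz (0.27, adjusted p 0.0260). Unscaled values gave 2 higher and 1 lower, and libraries rescaled to the same sum 0 higher and 2 lower, with a median of 0.00086. Leaving out old replicate 3 reduced the count of 6 to 2, and leaving out old replicate 2 or young replicate 1 reduced it to 3. Of 11 tested caspase, apoptosis inhibitor and cell death genes other than Dredd and Diap2, only the cell death inducer skl was called (-0.51, adjusted p 0.00492), with a list median of -0.059. Rescaled to the same sum, 4 were lower.

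Downstream, 14 of 15 antimicrobial peptide genes were called higher and 0 lower (18.3% and 20.8% of all genes tested), with a median log2 change of 6.05. The largest were those of DptA, encoding Diptericin A (8.73 in log2, limma adjusted p 7.24e-05), and CecA1, encoding a cecropin (7.98, adjusted p 6.20e-05). The smallest called were AttD, encoding an attacin (2.33, adjusted p 0.000397), and CecA2, another cecropin. CecA2 had 2.67, 1.48 and 5.87 FPKM in 50-day replicates 1 to 3 and was listed at 0 in all 3 young libraries. Cecropin genes resemble each other, so how their reads were divided is uncertain. Def, which encodes Defensin and was named after its values were seen, was not called (-0.63, adjusted p 0.261), though it was called lower when libraries were rescaled to the same sum. Where a peptide gene was near or at 0 in young heads, as CecA1, AttD and CecA2 were, its log2 change depends on the FPKM added. AttA, AttB, AttC, AttD, CecA1, CecA2, CecB, CecC and edin averaged under 1 FPKM at 3 days. They passed the filter only through their 50-day libraries, so their calls as higher carry no support of their own. The list median of 6.05 is the value of AttC, so the same holds for that median. The peptide sums of old heads exceeded those of young heads in every library, while the summed level of the 10 Imd transcripts was 191 to 225 FPKM at 50 days and 173 to 185 FPKM at 3 days. This list belongs in part to the Toll pathway, which also drives Mtk and Drs.

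**Figure D5:**
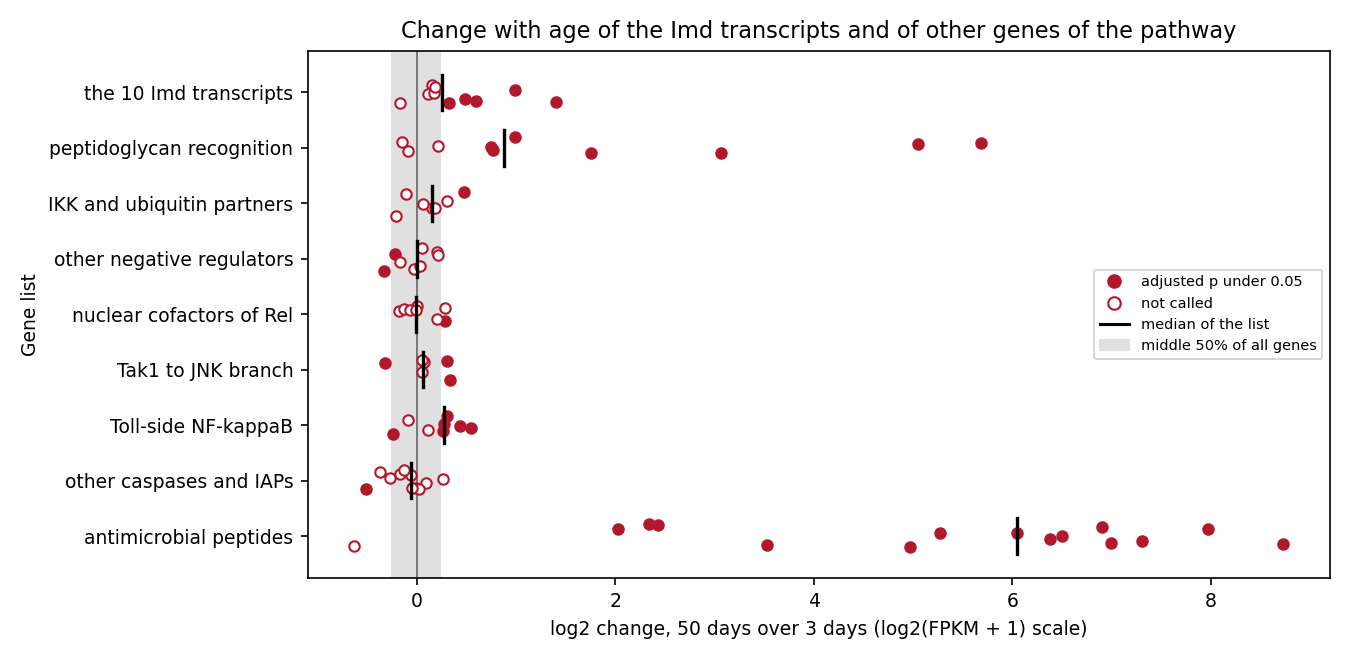
Log2 change of each tested gene (50 days over 3 days, on the log2(FPKM + 1) scale), a row per gene list, filled where the limma adjusted p was under 0.05, with a black bar at the median of the list and a grey band over the middle 50% of all genes. The medians were 0.25 for the 10 Imd transcripts, 0.88 for peptidoglycan recognition and 6.05 for antimicrobial peptides, and between -0.059 and 0.27 for the other lists. The peptide median is the value of AttC, which averaged 0.32 FPKM at 3 days and passed the filter only through its 50-day libraries. It therefore depends on the FPKM added and carries no support of its own.

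The libraries carried other differences between the ages beside these. Each count of markers stands beside the 18.3% of all genes tested that were called higher and the 20.8% called lower. In bulk RNA, fewer cells of a type and less RNA per cell cannot be told apart. Of 10 head fat body markers 6 were called higher and 0 lower, and their sum was 37037 to 62670 FPKM at 50 days and 13715 to 29809 FPKM at 3 days. Most of this sum was the yolk protein transcripts Yp1, Yp2 and Yp3, so it says little of the other markers. Not called were Yp2 (log2 change 1.08), Fbp1 (1.12), to (-0.15) and FASN1 (-0.20). Rescaled to the same sum, 7 of the 10 were higher and 2 lower. Of 9 tested hemocyte markers, of 10 listed, 1 was higher and 3 were lower, with sums of 138 to 162 FPKM at 50 days and 154 to 197 FPKM at 3 days. Of 8 neuronal markers 0 were higher and 6 lower, with sums of 435 to 512 FPKM at 50 days and 655 to 807 FPKM at 3 days. Of 6 glial markers 1 was higher and 3 were lower, with sums of 666 to 737 FPKM at 50 days and 992 to 1117 FPKM at 3 days. Of 6 photoreceptor markers 0 were higher and 4 lower, with sums of 13527 to 17396 FPKM at 50 days and 16060 to 18593 FPKM at 3 days. Most of these sums was ninaE, which was not called (log2 change 0.029), and neither was trp (-0.029). Of 6 muscle markers 0 were higher and 5 lower, with sums of 804 to 1027 FPKM at 50 days and 1565 to 2602 FPKM at 3 days. Gut and ovary germline markers were at a sum of at most 1.81 and 0.121 FPKM in any library, with Vm26Aa listed at 0 in all. Of the testis list, at 19.3 to 22.6 FPKM at 50 days and 28.8 to 33.4 FPKM at 3 days, only bol passed the filter. The part of these markers in the changes of the 10 transcripts was not tested.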

How the data were processed

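Per the labels' protocols, polyadenylated RNA from female heads was sequenced as paired reads of 150 bases. The submitters' processing notes name fastp, HISAT2, HTSeq and the build BDGP6, without versions. The table the authors deposited is called counts, yet its values have decimals and unequal sums, and they are read here as FPKM. A TPM table cut to fewer genes could not be told apart from it. The step from counts to these values, and the use of strand, are not given in the sources used here. No source used here gives the depth. Taking the smallest step in value times exon length for a single fragment puts the libraries at roughly 16000000 to 22000000 fragments, too coarse for intervals on single values.

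Columns were matched to samples by library name, with 0 left over. Libraries were multiplied by trimmed-mean factors (30% of ratios and 5% of levels trimmed at each end, genes above 1 FPKM). Genes whose scaled values averaged 1 FPKM or more were kept. Log2(value + 1) was fitted across all genes with limma 3.58.1 in R 4.3.3 (lmFit, eBayes with a mean-variance trend, age as the factor), with Benjamini-Hochberg adjustment over all genes kept and a threshold of 0.05. The procedure was run on simulated data with known changes in few genes, balanced in direction. That setting cannot check the scaling for data in which many genes change. Levels, sums and SD are printed on the deposited scale. The limma p-values rest on the spread between 3 pools of heads per age, taken as equal at both ages and moderated by the trend over all genes. The wider spread of Rel, pirk and imd at 50 days is not modelled. The ratio p-values come from relabelling the 6 libraries. The within-library ratios use deposited values with nothing added. Positions, exon overlaps and lengths come from the BDGP6.54 annotation. The notes name BDGP6 without a release.

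The 10 genes, the gene lists and the tests were chosen with earlier results of these data known. Named are all 10 genes, and for each list the 2 highest and 2 lowest log2 changes among called genes. For Rel and pirk, the 5 genes with the highest correlation are also named. PGRP-SC1a and CYLD were not analysed here. Alternatives covered scaling, gene length, the value added, the filter, the variance trend, the replicate number as a block and each library left out. The ratios with 1 FPKM added were an alternative chosen after seeing the data.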

Additional observations from a re-analysis of the deposited data

How the results depend on the processing

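The 5 calls among the 10 Imd transcripts (pirk, Rel, imd, Dredd and Tab2) were the same genes in each of the 6 fits that left out 1 library, where the count stayed at 5 to 5 and no transcript was called lower (0 to 0). They were also the same with the median of ratios, the length trend removed, 0.1 FPKM added, no filter and no variance trend. With a mean of at least 5 FPKM, pirk and Fadd were not tested and the other 4 calls held. Unscaled values lost Tab2 (4 calls). Rescaling each library to the same sum gave 3 calls, 2 higher (pirk and Rel) and 1 lower (Diap2), with adjusted p of 0.0674 for imd, 0.202 for Dredd and 0.781 for Tab2. It turned the sign of Fadd (-0.073), Tak1 (-0.16), key (-0.097) and casp (-0.10), none of them called. It moves the median of all genes to -0.26, and the share of calls that are higher to 19.0%, against 46.9% as reported and 33.4% unscaled. The number of genes called was 3418 as reported and 2619 to 3718 with a library left out. The log2 differences of the ratios kept their signs: with a library left out they ran from 0.73 to 1.04 for pirk/Rel, -0.44 to -0.31 for casp/Dredd, 0.17 to 0.28 for Tab2/Tak1 and -0.42 to -0.26 for key/IKKbeta, and with 1 FPKM added, a choice made after seeing the data, pirk/Rel was 0.44, against 0.85 as reported, with an exact permutation p of 0.2. Replicate numbers were not treated as pairs in the main fit. Deviations of same-numbered libraries had correlations of -0.21, -0.10 and -0.24, too few values to show whether the samples were paired. With the replicate number as a block 2703 genes were called, and the same 5 of the 10 transcripts. The block gave 2 calls in the Toll list (6 as reported), 1 in the JNK list (3), 1 among negative regulators (2) and 0 among cofactors (1). Depth limits the 3-day level of pirk and both levels of Fadd most among the 10, and no error from counting is given.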
